A study of Rattus norvegicus with 3 samples.

Results

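The genes described here are 8 transcription factors of the nephron lineage, Hnf4a, Pax2, Pax8, Tfcp2l1, Foxi1, Gata3, Irx1 and Sox4, among 20667 genes on the array. They were chosen by name for their part in kidney development or in the identity of a nephron segment, and each was read from the single transcript cluster (a group of probes for 1 transcribed locus) that names it. Of the 8 genes, 7 were measured and Irx1 was not, where measured means that at least 1 array reached a background level of 5.34 log2 set by olfactory receptor genes. Kidney RNA came from 3 male rats, with 1 Clariom S Rat array per rat: 1 rat at day 5 of ethylene glycol (EG), 1 rat at day 2 of EG and 1 control rat. EG was given by mouth at 8 g/kg. The labels can be read as days of treatment or as days after it, and they name no vehicle for the control. The sources used here give neither the strain, nor the age, nor the part of the kidney taken. The liver turns EG, the main solvent of antifreeze, into glycolate and oxalate, and calcium oxalate then crystallises in kidney tubules; the title of the study names stones and tubular injury. Since each group is 1 rat, variation between rats could not be estimated and nothing could be tested, so all differences are between single arrays.

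Nephrons form when kidney mesenchyme turns into epithelium and then divides into proximal, intermediate and distal segments, while the collecting duct grows from the ureteric bud. Pax2 and Pax8 mark the renal epithelial lineage from its start, and segment factors come later: Hnf4a in the proximal tubule, Irx1 in the intermediate part of the forming nephron, Tfcp2l1 in the distal nephron and collecting duct, Foxi1 in intercalated cells and Gata3 in the ureteric bud and collecting duct. Sox4 belongs to the SoxC group, which acts in progenitors of many tissues. In the adult kidney several of these factors help to keep tubule cells in their differentiated state.

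Gata3 was the only one of the 8 factors at least 2-fold apart between arrays, and it was higher on the EG day 5 array than on both other arrays. Tfcp2l1 came next, lower on both EG arrays by just under 2-fold, while Hnf4a, Pax2, Pax8, Foxi1 and Sox4 lay within 0.72 log2 units over the 3 arrays. At EG day 5 against control, 1 of the 7 measured factors was at least 2-fold higher, where 4.75% of all 13546 measured genes were, and 0 were lower, where 3.62% were. At EG day 2 against control, 0 were higher and 0 lower, where 4.45% and 2.45% of measured genes were. Between EG day 5 and EG day 2, 1 was higher and 0 lower, where 2.21% and 3.34% were. At a looser threshold of 1.5-fold, EG day 5 against control had 1 higher (Gata3) and 1 lower (Tfcp2l1), beside 15.1% and 12.0% of measured genes, and EG day 2 against control had 0 higher and 2 lower (Tfcp2l1 and Hnf4a), beside 14.8% and 9.18%. EG day 5 against EG day 2 then had 1 higher (Gata3) and 1 lower (Pax8), beside 9.31% and 12.8%. The median absolute difference of the 7 factors was 0.35 for EG day 5 against control, 0.45 for EG day 2 against control and 0.16 for EG day 5 against EG day 2, beside 0.33, 0.32 and 0.30 over all measured genes. The comparisons of both EG arrays with control share the control array, so a value particular to that rat enters both.

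**Figure D1:**
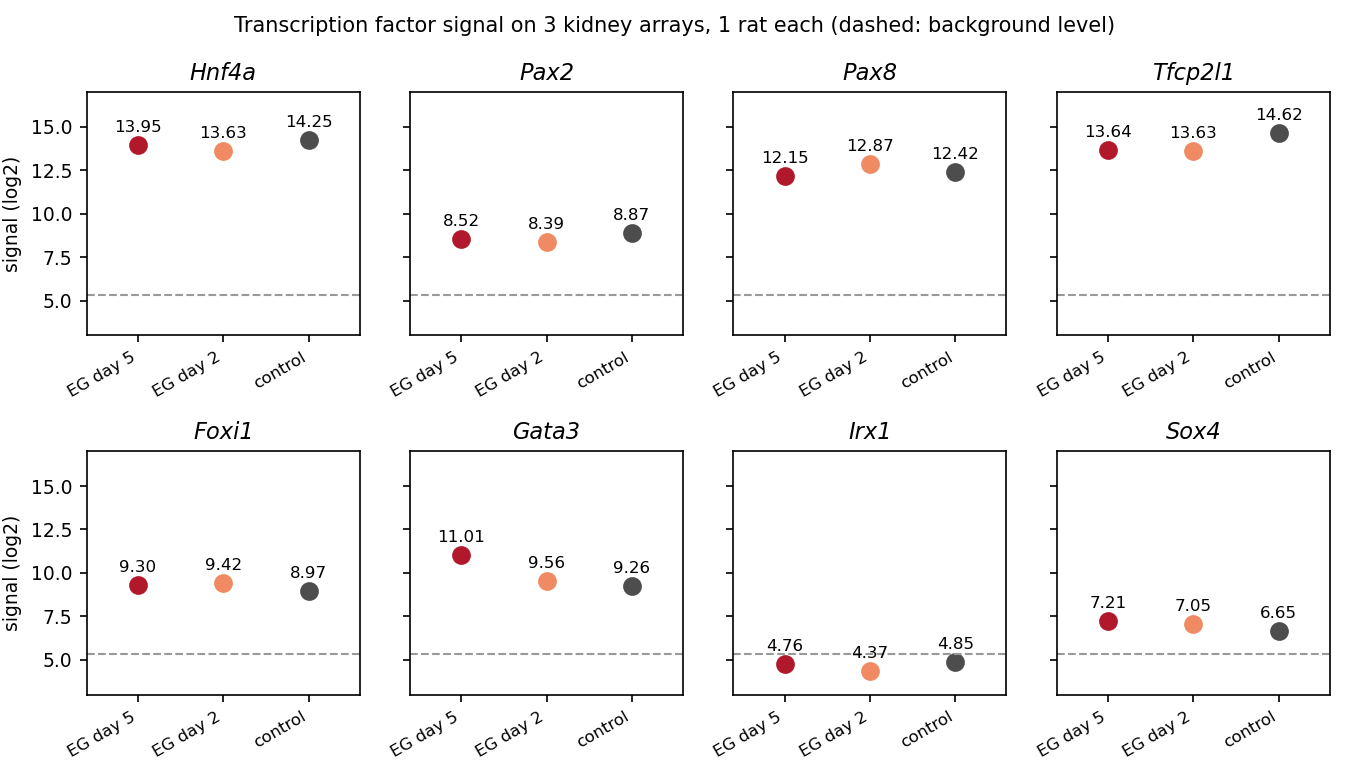
Signal of each transcription factor (log2, vertical axis) on the EG day 5, EG day 2 and control arrays, with 1 point per array and the background level of 5.34 as a dashed line. Gata3 stands highest at EG day 5 (11.01), Tfcp2l1 is lower on both EG arrays (13.64 and 13.63, against 14.62 in the control), and Irx1 lies under the background level on all 3 arrays; signals of different genes are not comparable.

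**Figure D2:**
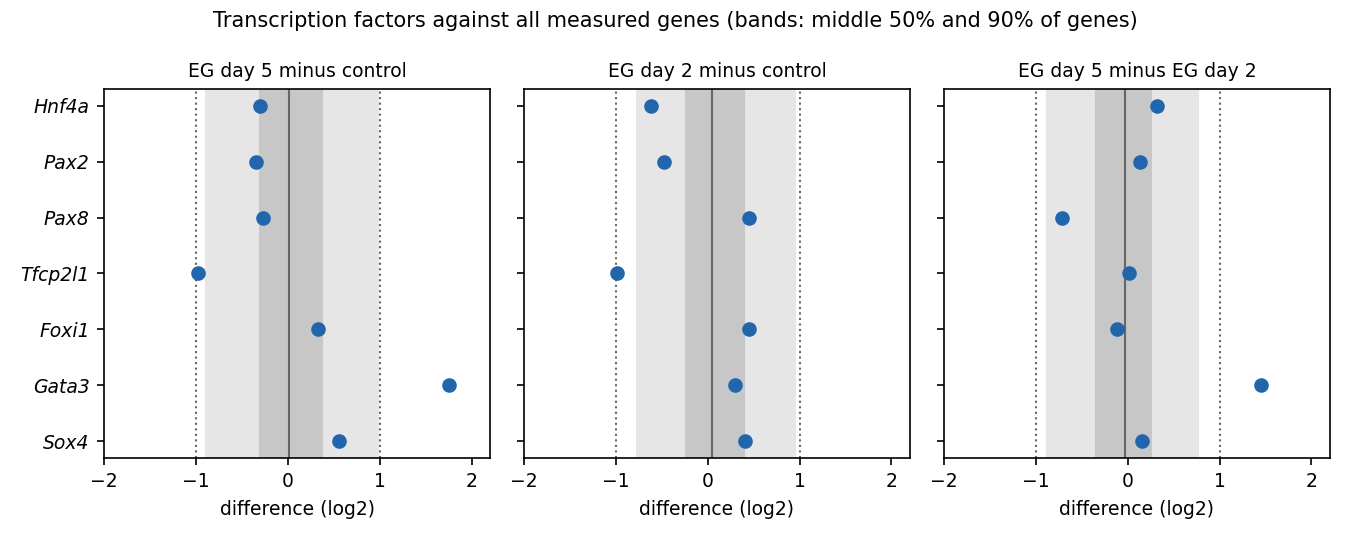
Difference in log2 signal (horizontal axis) of the 7 measured transcription factors in the 3 comparisons, with the middle 50% (dark) and middle 90% (light) of all 13546 measured genes as bands, their median as a grey line and 2-fold as dotted lines. Gata3 lies right of the light band in both comparisons that use EG day 5, and Tfcp2l1 lies left of it in both comparisons with the control.

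Pax2 and Pax8 encode paired-box proteins that in the mouse act together to start the nephric lineage. Pax2 had a signal of 8.52 log2 at EG day 5, 8.39 at EG day 2 and 8.87 in the control. Both EG arrays were lower than the control array, with differences of -0.35 and -0.48, and 22.5% and 12.8% of measured genes were at least as far below the control. Pax2 is known in mice to return in proximal tubules after acute tubular necrosis, and no higher Pax2 signal was seen on these whole-kidney arrays. Pax8, which stays on in most adult tubule segments, had 12.15 at EG day 5, 12.87 at EG day 2 and 12.42 in the control. The 2 EG arrays lay on opposite sides of the control, at -0.27 for EG day 5 and 0.45 for EG day 2. EG day 5 was 0.72 log2 units below EG day 2 (1.65-fold), and 8.55% of measured genes were as far apart or farther in that direction. Pax8 also acts in the thyroid, and 4 thyroid genes (Tg, Slc5a5, Nkx2-1 and Foxe1) were all under the background level, between 3.05 and 4.65.

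Hnf4a encodes a nuclear receptor that in the mouse is needed for proximal tubule cells to mature. Its signal was 13.95 log2 at EG day 5, 13.63 at EG day 2 and 14.25 in the control. Both EG arrays were lower than the control array, EG day 2 more so: the differences were -0.30 at EG day 5 and -0.62 (1.54-fold lower) at EG day 2, and 25.4% and 8.34% of measured genes were as far down or farther. Hnf4a is known to start from an upstream and a downstream promoter, and the array has 1 cluster for the gene, which does not separate them. RefSeq holds a window of 300 bases (250 before and 50 after the start) for each, 35616 bases apart, on the + strand of build GRCr8: the upstream one at chr3:172605970-172606269 and the downstream one at chr3:172641586-172641885. They are shown because the summed signal of the gene can come from either, and the capitals mark AGATAA, a sequence that GATA factors such as Gata3 can bind, at position -22 from the start.
Hnf4a upstream: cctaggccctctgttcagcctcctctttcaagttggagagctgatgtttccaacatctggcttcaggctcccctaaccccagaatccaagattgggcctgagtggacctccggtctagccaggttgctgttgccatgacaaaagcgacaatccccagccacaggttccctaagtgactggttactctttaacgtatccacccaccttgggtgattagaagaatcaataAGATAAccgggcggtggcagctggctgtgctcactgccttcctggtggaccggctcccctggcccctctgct
Hnf4a downstream: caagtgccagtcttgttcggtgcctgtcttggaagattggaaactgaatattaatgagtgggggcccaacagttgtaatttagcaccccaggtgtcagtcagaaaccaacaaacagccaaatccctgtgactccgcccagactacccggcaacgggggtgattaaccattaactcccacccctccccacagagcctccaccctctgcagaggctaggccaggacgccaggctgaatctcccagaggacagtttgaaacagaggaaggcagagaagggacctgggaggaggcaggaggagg

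Most genes of the proximal tubule were, like Hnf4a, lower on both EG arrays than in the control, 28 of 37. The share of all measured genes lower on both arrays was not counted, here or for the other segments below. Both comparisons use the same control array, which favours the same sign in both. At EG day 5, 11 of the 37 measured proximal tubule genes lay 2-fold or more below the control and 1 above it (median difference -0.73). At EG day 2 these counts were 11 and 0 (median -0.61). The medians over all measured genes were 0.01 and 0.05. The lactate transporter gene Slc5a12 had 14.23 at EG day 5, 15.57 at EG day 2 and 17.20 in the control, differences of -2.97 and -1.63. Slc4a4, which encodes the basolateral bicarbonate transporter, differed by -2.08 and -0.89, the neutral amino acid transporter gene Slc6a19 by -1.99 and -1.07, and the glucose transporter gene Slc5a2 by -1.84 and -1.06. These 4 genes, the largest differences of the list, were further below the control at EG day 5 than at EG day 2. The list as a whole was divided: 20 genes had a lower signal at EG day 5 than at EG day 2 and 16 a higher one, as Hnf4a did (median difference -0.14). The aminopeptidase gene Anpep, with -0.96 and -1.79, and the endocytic receptor gene Lrp2, with -0.62 and -1.01, ran as Hnf4a did (both named after their values were seen). Amn, the partner of the endocytic receptor cubilin, was the 1 gene of the list at least 2-fold higher at EG day 5. Its difference was 1.06 (named after its value was seen), and some others were higher by less, such as Ttr (0.88) and Apom (0.35). In whole-kidney RNA, fewer cells of a type and less RNA per cell cannot be told apart.

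Irx1, an Iroquois homeobox gene of the intermediate nephron segment in frog and mouse embryos, was under the background level on every array, at 4.76 log2 at EG day 5, 4.37 at EG day 2 and 4.85 in the control, so it has no fold. Of its relatives, Irx2 and Irx3 were measured and were higher on both EG arrays than in the control, with 6.97 and 6.94 against 6.47 for Irx2 and 7.07 and 7.03 against 6.54 for Irx3. Irx4 and Irx5 were lower on both EG arrays: Irx4 had 5.62 and 5.51 against 6.18, and Irx5 had 5.36 and 5.31 against 6.0, all within 1 log2 unit of the background level. Irx6 was not measured.

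Tfcp2l1 encodes a CP2-family factor that in the mouse acts in the differentiation of distal nephron and collecting duct cells. Its signal was 13.64 log2 at EG day 5, 13.63 at EG day 2 and 14.62 in the control. The EG arrays were 0.01 log2 units apart, and both lay below the control array, by 1.97-fold (difference -0.98) at EG day 5 and 1.99-fold (difference -0.99) at EG day 2. Of all measured genes, 3.91% and 2.56% were at least as far below the control. When every array was centred on its own median, the differences were -1.07 and -1.04, past 2-fold. The promoter window of Tfcp2l1 (chr13:32286393-32286692, + strand, GRCr8) is shown because the gene had the largest lower value of the 8.
Tfcp2l1: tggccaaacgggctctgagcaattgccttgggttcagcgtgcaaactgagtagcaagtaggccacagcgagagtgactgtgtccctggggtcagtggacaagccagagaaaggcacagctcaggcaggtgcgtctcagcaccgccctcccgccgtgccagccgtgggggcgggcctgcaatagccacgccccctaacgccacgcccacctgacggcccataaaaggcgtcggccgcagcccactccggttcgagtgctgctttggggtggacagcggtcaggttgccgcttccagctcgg

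Of 22 measured genes of the thick ascending limb and distal tubule, EG day 5 had 1 above and 1 below the control by 2-fold or more (median -0.24). The shares of all measured genes were 4.75% and 3.62%. EG day 2 had 4 above and 2 below (median -0.36), beside 4.45% and 2.45%. Kng1 (kininogen, made in the distal nephron) was higher by 1.20 and 2.44, and the prostaglandin receptor gene Ptger3 by 0.89 and 1.93. The tight junction gene Cldn19 was higher by 0.85 and 1.73, and the calcium channel gene Trpv5 by 0.77 and 1.69. These 4 genes stood opposite in sign to Tfcp2l1, but 15 of the 22 were, as Tfcp2l1 was, lower on both EG arrays and 5 were higher on both. The 3 genes below the control by 2-fold or more at either time were the sodium chloride cotransporter gene Slc12a3 (-1.09 and -0.75), the growth factor gene Egf (-0.68 and -1.21) and the calbindin gene Calb1 (-0.21 and -1.04), all named after their values were seen. Umod, the uromodulin gene of the ascending limb, had 18.67, 18.69 and 18.79. Tfcp2l1 also acts in the collecting duct, and the list of principal cell and collecting duct genes did not run as it did. Of 19 measured genes of that list, 5 were lower on both EG arrays and 8 were higher on both (medians 0.23 and 0.03). Intercalated cell genes were listed apart: 12 of 22 were, as Tfcp2l1 was, lower on both EG arrays and 5 were higher on both (medians -0.29 and -0.33).

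Foxi1, the forkhead factor that intercalated cells need in the mouse, had 9.30 log2 at EG day 5, 9.42 at EG day 2 and 8.97 in the control. Both EG arrays were higher than the control, by 0.33 and 0.45, and 27.6% and 22.1% of measured genes were as far above it or farther. Of the genes of intercalated cells, which secrete acid or bicarbonate, 12 of 22 were lower than the control on both EG arrays and 5 were higher on both. Of the 22, EG day 5 had 3 below the control by 2-fold or more and 0 above (median -0.29), and EG day 2 had 2 below and 0 above (median -0.33). The 2-oxoglutarate receptor gene Oxgr1 had 9.34 at EG day 5, 11.01 at EG day 2 and 11.16 in the control, and the anion exchanger gene Slc4a9 had 10.12, 11.36 and 11.26. Both were low at EG day 5 alone. Car12, a carbonic anhydrase gene, differed by -1.43 and -1.40. Among the 5 genes higher on both EG arrays, as Foxi1 was, were Kit (0.47 and 0.75), Car15 (0.73 and 0.35) and Slc26a4 (0.23 and 0.38). All of them were named outside the rule for naming, after their values were seen. Atp6v1b1 and Atp6v0a4, which encode proton pump subunits and are known to depend on Foxi1 in the mouse (both named outside the rule for naming, after their values were seen), had 10.22, 10.45 and 10.77, and 15.61, 15.89 and 16.54, on the EG day 5, EG day 2 and control arrays.

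**Figure D3:**
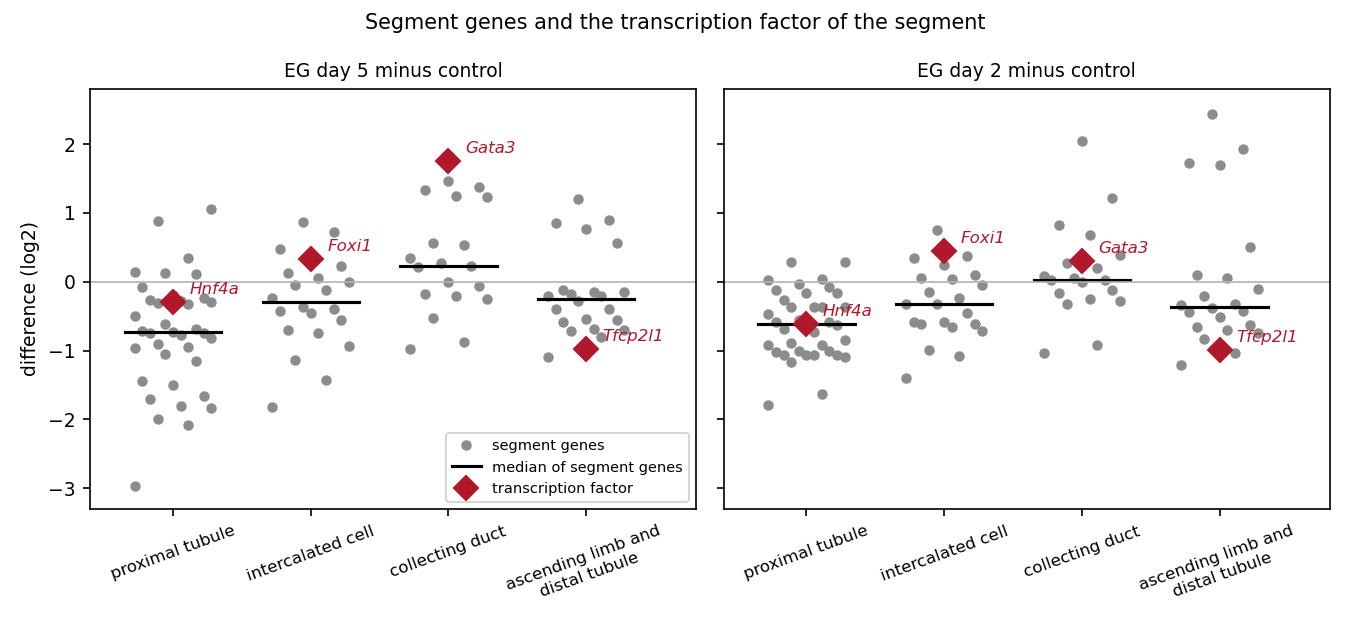
Difference from control (log2, vertical axis) of the measured genes of 4 nephron segments (grey points), their median (black line) and a transcription factor of the segment (red diamond), for EG day 5 (left) and EG day 2 (right). Tfcp2l1, which also acts in the collecting duct, is drawn only with the ascending limb and distal tubule genes. Genes under the background level on both arrays are drawn at 0; Gata3 at EG day 5 (1.75) lies above the points of all collecting duct genes, where Krt18 is drawn at its lower bound, and Foxi1 lies above the intercalated cell median at both times.

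Gata3 encodes a zinc finger factor that the ureteric bud needs and that stays on in the collecting duct, and human carriers of 1 inactive copy have kidney malformations with deafness and low parathyroid hormone. Its signal was 11.01 log2 at EG day 5, 9.56 at EG day 2 and 9.26 in the control. EG day 5 stood apart from both other arrays, 1.75 log2 units (3.36-fold) above the control and 1.45 (2.73-fold) above EG day 2. EG day 2 was 0.30 above the control. Of 13546 measured genes, 76 (0.561%) were as far above the control or farther at EG day 5, and 59 (0.436%) as far above EG day 2. With 3 other normalizations Gata3 was higher at EG day 5 by 1.66 to 1.73 against the control and by 1.41 to 1.59 against EG day 2. Its promoter window (chr17:73553298-73553597, + strand, GRCr8) is shown because it had the largest difference of the 8 genes.
Gata3: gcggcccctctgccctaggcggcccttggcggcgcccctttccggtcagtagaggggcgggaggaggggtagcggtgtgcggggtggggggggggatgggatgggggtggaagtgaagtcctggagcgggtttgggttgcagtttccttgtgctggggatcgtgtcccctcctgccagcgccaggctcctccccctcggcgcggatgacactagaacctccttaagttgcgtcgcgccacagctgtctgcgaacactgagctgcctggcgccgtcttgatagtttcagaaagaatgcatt

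Collecting duct genes differed unevenly beside Gata3. Of 19 measured, EG day 5 had 5 above the control by 2-fold or more and 0 below (median 0.23), and EG day 2 had 2 above and 1 below (median 0.03). The sodium pump regulator gene Fxyd4 had 8.86 at EG day 5, 7.36 at EG day 2 and 7.61 in the control. Avpr2, the vasopressin receptor gene, had 7.50, 6.10 and 6.27, and the keratin gene Krt19 had 8.26, 7.15 and 6.88 on the same arrays. These 3 genes were high at EG day 5 alone, as Gata3 was (Avpr2 was named after its values were seen). Krt8 and Krt18, keratin genes of simple epithelia that are also on the injury list, were higher on both EG arrays, by 1.34 and 1.22 for Krt8 and by at least 2.75-fold and 4.14-fold for Krt18. The water channel gene Aqp2, the best-known product of principal cells, had 12.95, 12.64 and 12.61, and the cortisol-inactivating enzyme gene Hsd11b2 had 13.45, 13.23 and 13.18 (both outside the rule for naming).

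Over the 262 other measured genes of the lists, the nearest profiles to Gata3 that lay above background on all arrays were those of Pdgfrb and Alb, at Euclidean distances of 0.22 and 0.23 log2 units over the 3 arrays, each profile of deposited values centred on its mean. Among all genes above background on every array, 12 had a distance of at most that of Pdgfrb, itself included. Pdgfrb, the receptor gene of pericytes and mesangial cells, had 11.27, 10.09 and 9.51 at EG day 5, EG day 2 and in the control. Alb, the albumin gene, had 8.19, 7.03 and 6.46. Hoxa11, a homeobox gene of kidney and limb development, also came out near, but had 5.79, 4.39 and 4.07, the EG day 2 and control values under the background level. Its likeness to Gata3 is therefore not measured, and it was at least 1.37-fold higher at EG day 5.

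Gata3 is also made by mesangial cells, T helper and innate lymphoid cells and urothelium. The markers of mesangial cells, fibroblasts and smooth muscle included 8 of 14 measured genes above the control by 2-fold or more and 0 below on the EG day 5 array (median 1.17, or 0.68 with the background level at the olfactory receptor median or with none), and 4 above and 0 below on the EG day 2 array (median 0.37). Their mean signal was 10.46, 10.01 and 9.53 log2 on the EG day 5, EG day 2 and control arrays, and Col3a1, a fibrillar collagen gene, was higher by 2.36 at EG day 5. The 4 genes of the T cell receptor complex (Cd3d, Cd3e, Cd3g and Cd247) were under the background level on all arrays, between 2.49 and 4.86. Of 23 matched T and innate lymphoid genes 8 were measured, with a mean of 5.91, 5.86 and 5.90, and Il5 and Il13 were among those under the background level. The measured ones did not follow 1 pattern: the costimulatory receptor gene Cd28 had 6.79, 7.10 and 8.48, the adhesion receptor gene Cd2 had 6.33, 7.02 and 5.99, and Il1rl1, the interleukin-33 receptor gene, had 6.53, 5.91 and 5.74. The 5 uroplakin genes of urothelium lay between 3.55 and 5.12, under the background level. An inner medulla list, added after the values were seen, included 4 of 14 measured genes above the control by 2-fold or more and 0 below on the EG day 5 array (median 0.40), and 1 above and 0 below on the EG day 2 array (median 0.23). Of that list, the aldose reductase gene Akr1b1 was at 11.81, 10.45 and 10.17 and the urea transporter gene Slc14a1 at 6.95, 5.57 and 5.73. The list was divided: 8 genes had a higher signal at EG day 5 than at EG day 2, 5 a lower one and 1 the same. Slc6a6 was highest at EG day 2 (13.62, 14.49 and 12.54), Nfat5 differed little (13.18, 13.36 and 13.17), and Slc14a2 was under the background level. The part of stromal cells and of the tissue sampled in the Gata3 value was not tested.

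Sox4, an HMG-box factor of the SoxC group that is active with its relative Sox11 in the developing mouse kidney, had 7.21 log2 at EG day 5, 7.05 at EG day 2 and 6.65 in the control. Both EG arrays were above the control, by 0.56 (1.47-fold) and 0.40 (1.32-fold), and 16.1% and 25% of measured genes were as far above it or farther. Sox11 had 6.45 on both EG arrays and 6.05 in the control, a difference of 0.40 at both times. Sox12, the remaining gene of the group, had 7.44, 6.76 and 7.35 and was lowest at EG day 2. Genes of tubular injury and repair differed far more on the same arrays: EG day 5 had 16 of 24 measured genes above the control by 2-fold or more and 1 below (median 1.29), and EG day 2 had 15 above and 0 below (median 1.59). Spp1 (osteopontin) had 18.43 on both EG arrays and 11.87 in the control, and Clu (clusterin) had 17.29, 17.20 and 9.54. Sox4 is also active in endothelial cells, and 13 measured endothelial genes had medians of 0.12 and 0.02. EG day 5 had 2 of them above the control by 2-fold or more and 0 below, and EG day 2 had 0 and 0. The 2 were Eng (1.11 and 0.93) and Esam (1.08 and 0.84), while Kdr was lower (-0.56 and -0.66). In the list, 6 genes were higher on both EG arrays and 3 were lower on both.

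No measured relative of the 8 factors differed by 2-fold. Of 24 relatives, all matched, 13 were measured, and in each of the 3 comparisons 0 were 2-fold or more apart. Their median difference from control was 0.09 (EG day 5) and 0.13 (EG day 2). Of all measured genes, 4.75% passed 2-fold upward and 3.62% downward for EG day 5 against control. The shares were 4.45% and 2.45% for EG day 2 against control, and 2.21% and 3.34% between the EG arrays. A count of 0 among 13 does not set the relatives apart. Pax5, Foxi2, Gata2, Gata6, Irx4, Irx5 and Sox11, at 5.48 to 6.19 in the control, lay within 1 log2 unit of the background level. With lower values set to it, these genes could not come out 2-fold below control. Hnf4g, the close relative of Hnf4a, had 11.54, 11.50 and 11.62 on the EG day 5, EG day 2 and control arrays. Gata2, a factor of endothelial and collecting duct cells, had 6.88, 6.66 and 6.19, higher on both EG arrays than in the control but by less than Gata3 at EG day 5. Tfcp2 and Ubp1, the widely active relatives of Tfcp2l1, had 8.43, 8.28 and 8.29, and 10.62, 10.40 and 10.24, so neither was low on the EG arrays. Of the Pax family, Pax5, the B cell factor, was measured besides the 2 genes described, at 4.85, 5.86 and 5.48. Hnf4g, Tfcp2 and Ubp1 were outside the rule for naming.

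Some other transcription factors of the kidney epithelium gave larger differences than most of the 8. Of 31 measured, EG day 5 had 3 above the control by 2-fold or more and 2 below (median 0.10), beside 4.75% and 3.62% of all measured genes. EG day 2 had 2 above and 3 below (median -0.12), beside 4.45% and 2.45%. The genes that follow were named for the size of their difference. Ppara, a nuclear receptor gene for fatty acid oxidation in proximal tubules, had 7.63 at EG day 5, 8.44 at EG day 2 and 9.76 in the control, 4.38-fold and 2.50-fold lower. Nr1h4, the bile acid receptor gene FXR, had 12.07, 12.97 and 13.72. Both were lowest at EG day 5 and highest in the control, which was not the order of Hnf4a. Elf3, an ETS factor of epithelia, had 7.77, 9.01 and 7.33 and was highest at EG day 2. Tfap2a had 6.36 and 6.38 on the EG arrays and 4.78, below background, in the control, at least 2.03-fold and 2.06-fold higher. Hoxd9 was higher by 1.23 and 0.82, and Pou3f3, a factor of the intermediate nephron, by at least 2.16-fold at EG day 5. Hoxd8 and Dmrt2 (a factor of intercalated cells) were lower at EG day 2 by 2.33-fold and 2.11-fold.

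**Figure D4:**
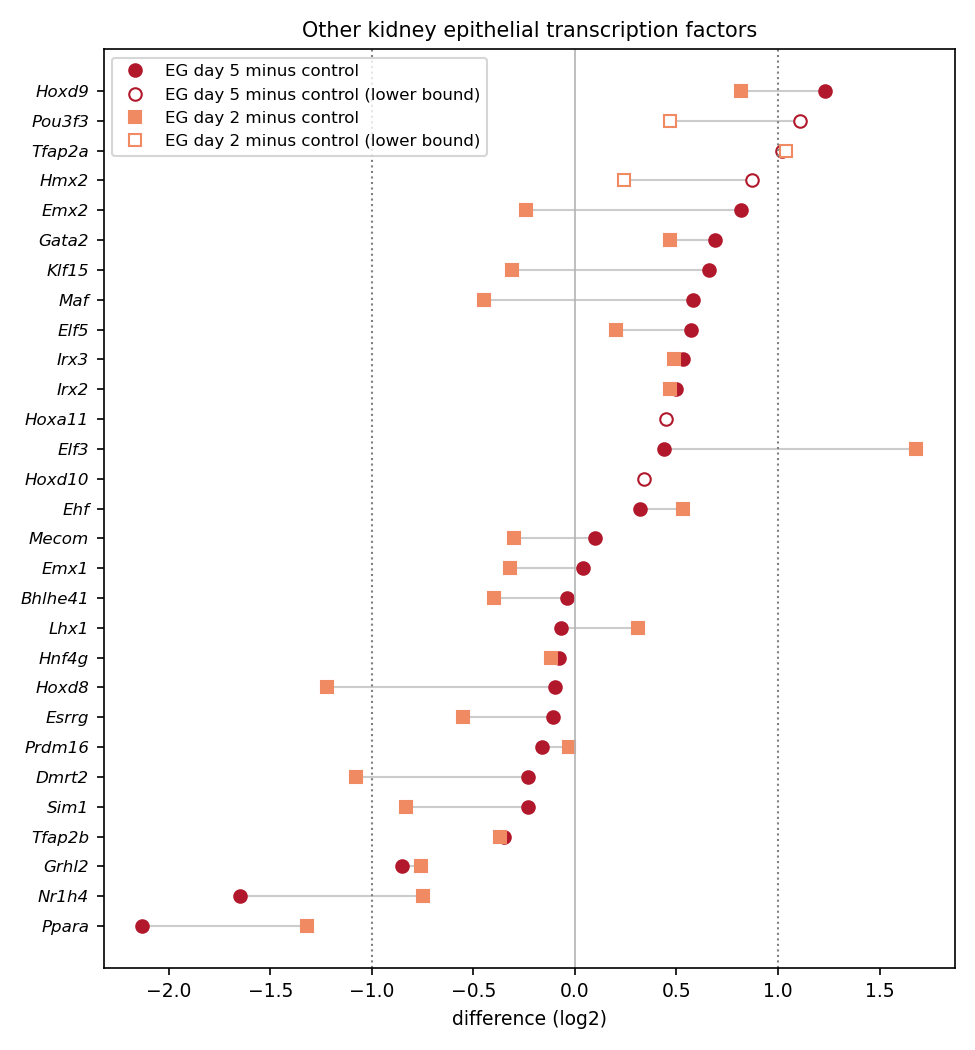
Difference from control (log2, horizontal axis) of 29 of the 31 other kidney epithelial transcription factors, with a red circle for EG day 5 and an orange square for EG day 2, open symbols for lower bounds and dotted lines at 2-fold. Ppara and Nr1h4 lie farthest left at EG day 5 (-2.13 and -1.65) and Elf3 farthest right at EG day 2 (1.68); Hoxa11 and Hoxd10 have no EG day 2 symbol because both arrays were under the background level.

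Factors of nephron progenitors and podocytes were measured for 10 of 18 matched genes. Six2, the factor that keeps nephron progenitors renewing, had 5.59, 5.74 and 5.88, close to the background level (outside the rule for naming), and Osr1, Meox1 and Foxd1 were under it on all arrays. Tcf21, a factor of stromal cells and podocytes, had 10.54 at EG day 5, 9.30 at EG day 2 and 8.33 in the control, 4.63-fold and 1.96-fold higher. Lmx1b, which podocytes need, had 5.46, 5.97 and 6.76, 2.46-fold and 1.73-fold lower. Podocyte structural genes had medians of 0.01 and 0.10 over 11 measured genes.

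Promoter windows of RefSeq (build GRCr8) were matched for 7 of the 8 genes, all but Sox4, and gave 8 windows, since Hnf4a has a pair. Their share of G and C was 55.3% to 74.0%, against a median of 51.7% over 33469 windows of the same length. Exact letters of 6 motifs were counted on both strands. AGATAA (bound by GATA factors) was in 1 of the 8 windows, the upstream one of Hnf4a, and in 11.6% of all windows. CAAAGTC (Hnf4a) was in 0 of the 8 and 4.61% of all windows, GTAAACA (forkhead) in 0 and 3.78%, ACAAAG (Sox) in 0 and 18.8%, GTCACGC (Pax) in 0 and 2.00%, and ACATGT (Irx) in 0 and 5.74%. A match says only that these letters stand in the window, and its absence says nothing about binding.

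The labelled tissue was matched by its markers: Umod, Slc34a1, Lrp2, Slc12a1 and Aqp2 lay between 12.61 and 19.19 log2 on the 3 arrays. Of 16 measured macrophage markers, each EG array had 9 above the control by 2-fold or more and 0 below (medians 1.20 at EG day 5 and 1.12 at EG day 2). Red blood cell genes stood at medians of -2.39 and -0.90, the first of them -1.55 with the lower background level and -0.92 with none, and B cell markers, with 3 measured, at 0.22 and 0.38. Of 22 measured cell cycle genes, 0 were above the control by 2-fold or more on the EG day 5 array and 11 on the EG day 2 array, and 0 were below on either. The 5 measured liver genes, Alb among them, had medians of 0.33 and 0.28, while Apoa1 and Cyp7a1 were below background, at 3.66 to 4.23. The part of these other cells in the values of the 8 factors was not tested.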

How the data were processed

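The authors deposited log2 signals per transcript cluster of the Clariom S Rat array, made with Transcriptome Analysis Console, with an annotation of build rn6 and no filter, per the file headers (the submitters' processing notes name the same program and build). Its version, the background correction and any normalization are unknown from the sources used here. A value table gave the same log2 values, 69564 of 69564. The values reach 19.93, so the scale is not a plain 16-bit scanner scale, and a fold holds on the deposited scale.

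Of 23188 clusters, 21502 named 1 gene, and the brightest per gene gave 20667 genes. Background was set at 5.34 log2, the 95th percentile over 1058 olfactory receptor genes. Lower values were set to it, and a difference with 1 side under it is a lower bound ("at least"). Array medians were 6.30 (EG day 5), 6.26 (EG day 2) and 6.21 (control); the number of arrays limits the precision. Counts use 2-fold. Groups come from the sample titles. No test was run, since each group has 1 rat. Calculations used Python 3.11.15, pandas 2.3.3 and numpy 2.4.6, and cyclic loess used limma 3.58.1 in R 4.3.3. The counting step was tested on simulated data.

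The 8 genes and 19 lists were chosen with earlier results of these data known, and 2 lists were added after the values were seen. Named genes are the 8, up to 4 per list (8 for lists of factors) with the largest difference from control, and the 3 nearest profiles to Gata3, the only one of the 8 past 2-fold. Some genes of these lists are not reported here. The series was also processed with other background levels and normalizations.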

Additional observations from a re-analysis of the deposited data

How the results depend on the processing

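No paired analysis was possible because each group holds 1 rat. With each array centred on its median, Tfcp2l1 passed 2-fold, so the factors at least 2-fold lower than control numbered 1 at EG day 5 and 1 at EG day 2, in place of 0 and 0. At a threshold of 1.5-fold they numbered 1 at EG day 5 and 2 at EG day 2, while 1 was lower at EG day 5 than at EG day 2. The median over the factors at EG day 2 against control was 0.30, and -0.09 both without a background level and with one at the olfactory receptor median, since Irx1 then counts. Under the 3 other normalizations, 63 values of single measured factors moved by at most 0.18 log2 units; the 4 other settings (both background levels, mean of clusters, value table) cannot move them, since each has 1 cluster, lies above background and has the same values in that table. Only Tfcp2l1 at EG day 5 against EG day 2 changed sign, between -0.03 and 0.16 around 0.01. Of 336 list medians, 330 moved by less than 0.30, the median absolute deviation of the differences between the EG arrays, and 6 by more, all with another background level. At EG day 5 against control, the stromal list had 0.68 with the lower level and with none (1.17), and red blood cell genes -1.55 and -0.92 (-2.39). At EG day 5 against EG day 2, with the lower level, red blood cell genes had -0.50 (-0.84) and liver genes 0.10 (0.56). The split of all measured genes at least 2-fold apart moved: 56.7% were higher at EG day 5 against control, and 43.2% with arrays centred on their median; 64.5% at EG day 2 against control, and 54.0% with quantile normalization. At 1.5-fold, counts over all measured genes were 1244 to 2039, against 300 to 643 at 2-fold. Genes lower on the EG day 2 array numbered 601 with no background level and 503 with the level at the olfactory receptor median, against 332. Genes higher on the EG day 5 array when set against EG day 2 numbered 510 with no level, against 300.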
